A study of Mus musculus with 9 samples.

Results

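The Wnt ligands of the uterus were examined in RNA-Seq of whole mouse uterus on pseudopregnancy day (PPD) 4.5. The 9 genes, *Wnt2*, *Wnt4*, *Wnt5a*, *Wnt5b*, *Wnt6*, *Wnt7a*, *Wnt7b*, *Wnt11* and *Wnt16*, were found by symbol in the deposited table, which holds 31274 entries, and all 9 were present. The study asked what loss of the kinase WNK1 does to the uterus at the time it would receive an embryo. Each library came from 1 C57BL/6 mouse, with 4 *Wnk1f/f* and 5 *Wnk1d/d* females mated to vasectomized males, so that no embryo was present. Both genotypes carried the floxed *Wnk1* alleles, and *Wnk1d/d* mice in addition carried a Cre recombinase driven from the progesterone receptor gene (*PGRCre/+*). Recombination by this Cre is limited to cells that express or have expressed the progesterone receptor, which leaves immune and endothelial cells of the uterus with intact *Wnk1*, and it also reaches the ovary and pituitary. The ages of the individual mice were not given in the labels. Levels are FPKM (fragment numbers divided by exon length and by the sequencing total of the library), which correct for gene length and can therefore be compared between genes.

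Wnt ligands are secreted, lipid-modified glycoproteins that bind Frizzled receptors and co-receptors on nearby cells. In the canonical branch the signal stabilizes β-catenin, which joins TCF/LEF factors at target genes, and in the other branches it acts on cell polarity and movement through receptors such as ROR2 and RYK. In the mouse uterus, Wnt signals between epithelium and stroma are known for shaping the glands and for the response to the implanting embryo. *Wnt7a*, *Wnt7b* and *Wnt11* were treated here as epithelial ligands and *Wnt2*, *Wnt4*, *Wnt5a* and *Wnt16* as stromal ligands, from general knowledge of the tissue, and *Wnt5b* and *Wnt6* were put in neither class. Whole-uterus RNA does not show which cells made a transcript.

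The ligands lie at scattered places in the genome (GRCm38, the assembly behind mm10, with GENCODE M21 gene bounds matched by symbol). *Wnt6* lies at chr1:74771892-74785322 on the plus strand, and *Wnt10a*, another Wnt gene, starts 6193 bases beyond its end. *Wnt5b* lies at chr6:119432531-119544347 on the minus strand, 379621 bases from the targeted gene *Wnk1* (chr6:119923969-120038672). *Wnt7b* lies at chr15:85535437-85582473 (minus), *Wnt5a* at chr14:28504750-28527448 (plus) and *Wnt16* at chr6:22288227-22298522 (plus). *Wnt2* lies at chr6:17988940-18030585 (minus), *Wnt4* at chr4:137277489-137299726 (plus), *Wnt7a* at chr6:91363981-91411363 (minus) and *Wnt11* at chr7:98835112-98855195 (plus). Exons of *Wnt5a*, *Wnt7b* and *Wnt11* share bases with genes annotated on the opposite strand, *Gm2670*, *AU022754* and *Gm8398*. Use of strand in the counting was not given in the sources used here, so reads from such partners could not be told apart from those of the ligand. *AU022754* had an entry of its own, at 0.08 to 0.18 FPKM over the 9 libraries.

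The RefSeq promoter table (GRCm38.p6) held 7 of the 9 ligands. The 250 bases before the start site are shown for *Wnt6* and *Wnt5b*, the called ligands that fell in *Wnk1d/d* uteri and had an entry, and for *Wnt11*, whose window held a TCF/LEF motif. Each is written 5′ to 3′ on the strand of its gene, with the motif in capitals where it occurred.
*Wnt6*, chr1:74771642-74771891, plus strand: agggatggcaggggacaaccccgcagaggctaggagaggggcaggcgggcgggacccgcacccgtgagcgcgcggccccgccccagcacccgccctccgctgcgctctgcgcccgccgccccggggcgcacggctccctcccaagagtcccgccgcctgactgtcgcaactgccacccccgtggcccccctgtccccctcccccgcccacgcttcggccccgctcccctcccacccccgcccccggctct
*Wnt5b*, chr6:119544348-119544597, minus strand: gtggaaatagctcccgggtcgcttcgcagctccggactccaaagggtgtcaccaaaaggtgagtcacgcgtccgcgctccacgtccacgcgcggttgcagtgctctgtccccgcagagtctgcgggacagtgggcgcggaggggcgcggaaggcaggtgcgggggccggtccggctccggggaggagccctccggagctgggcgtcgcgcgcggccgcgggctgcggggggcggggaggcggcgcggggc
*Wnt11*, chr7:98834862-98835111, plus strand: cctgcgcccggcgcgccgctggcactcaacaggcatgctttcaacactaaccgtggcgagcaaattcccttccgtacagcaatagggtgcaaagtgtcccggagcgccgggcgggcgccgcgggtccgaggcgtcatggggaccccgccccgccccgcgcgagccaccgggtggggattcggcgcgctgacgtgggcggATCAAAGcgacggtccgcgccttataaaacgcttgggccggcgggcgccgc
Windows of the 250 bases before each start were searched on both strands for CTTTGAT and CTTTGAA, forms of the TCF/LEF motif, and for GTAAACA, the FOXO motif. CTTTGAT was found on the opposite strand of the *Wnt11* window, where it reads as ATCAAAG, and in 1 of the 3 *Wnt5b* windows, at an internal start that is not shown. The other ligand windows held none of the 3 motifs. Of all 32851 promoter windows, 3.21% held CTTTGAT, 4.46% held CTTTGAA and 3.17% held GTAAACA. The *Wnt6* window was 79.6% G or C with 28 CG pairs, against medians of 52.4% and 6 over all windows, and 1.39% of all windows were at least as rich in G and C.

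The labelled tissue was borne out by its markers, with keratins and other epithelial genes, stromal genes and smooth muscle genes in every library. *Wnk1* was lower in all *Wnk1d/d* libraries, at 29.9 to 33.9 FPKM against 43.4 to 47.3 FPKM (log2 fold change -0.52, SE 0.06, limma adjusted p = 0.0017). By the paper, the Cre removes 1 exon of *Wnk1*, and WNK1 protein of the whole uterus was reduced. The FPKM are for the whole gene, so they do not measure the extent of the deletion. FPKM give no counts, so the depth behind each value is unknown. The median log2(FPKM + 1) of the tested genes was 3.79 to 3.82 in all 9 libraries. *Wnk1d/d* replicate 4 stood apart in that 1 entry took 70.3% of its summed FPKM. *Wnk1f/f* replicate 4 stood apart in liver markers, which summed to 157 FPKM against 3.63 to 6.57 FPKM in the other controls. Values without each of these libraries are given where a call depended on them.

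The make-up of the Wnt transcripts differed between the genotypes. *Wnt6* and *Wnt7b* were lower in *Wnk1d/d* uteri, by 3.79-fold and 2.93-fold in mean FPKM, *Wnt5b* was lower by 1.52-fold, and *Wnt5a* was higher, at 1.36 times the control mean. *Wnt4*, *Wnt7a*, *Wnt11* and *Wnt16* did not pass the test. *Wnt2* was too low to be tested, and was lower in every *Wnk1d/d* library. Genes with a mean above 1 FPKM in at least 1 genotype were compared on log2(FPKM + 1) with limma, and a gene was called at an adjusted p under 0.05 over the 14728 genes tested. By this rule 4 of the 8 tested ligands were called, 1 higher and 3 lower, where 22.1% of all tested genes were called, 11.1% higher and 11.0% lower. With the study's further criterion of a 1.5-fold ratio of means 3 ligands were called, against 10.3% of all genes. *Wnt5a* did not meet that ratio here. The paper, by its own test on aligned reads (Cuffdiff), names *Wnt5a* among genes changed in both *Wnk1d/d* and FOXO1-deficient uteri. The libraries of the genotypes did not overlap for 4 of the 8 tested ligands and for 19.9% of all tested genes. The ligands were chosen with earlier results of these data known, so these shares are not free of that choice. The median log2 fold change was -0.14 over the tested ligands and 0.00 over all tested genes. Adding 1 before taking logs shrinks the fold change of weakly expressed genes. The limma p-values set each difference between genotypes against the spread between these mice, with information on spread shared across genes. In bulk tissue, fewer cells of a type and less RNA per cell cannot be told apart.

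**Figure D1:**
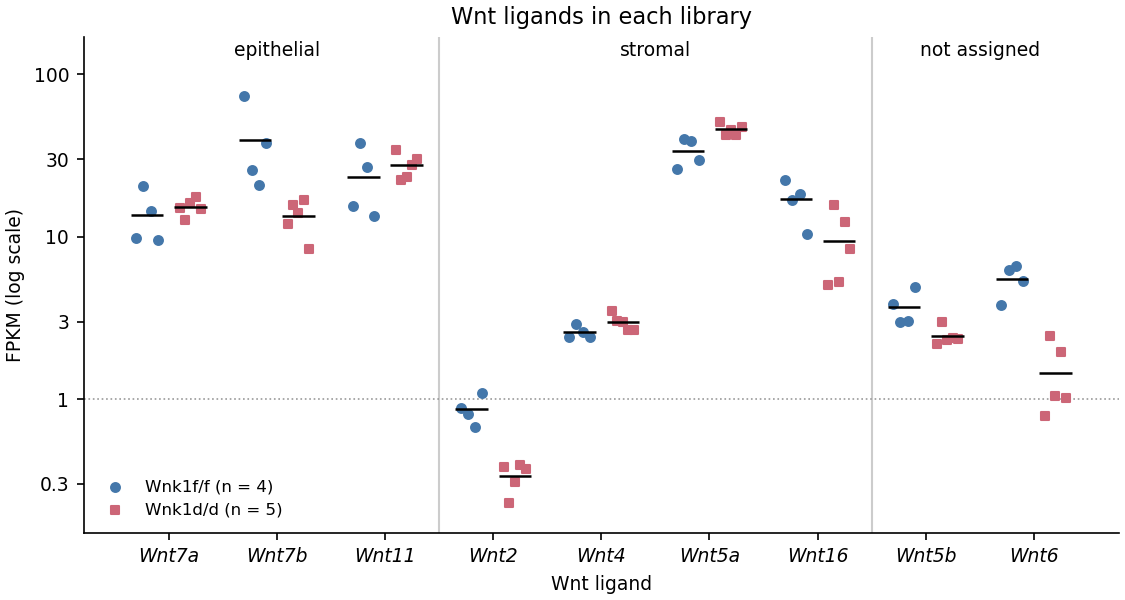
FPKM on a log axis of the 9 Wnt ligands in each library, for 4 Wnk1f/f mice (circles) and 5 Wnk1d/d mice (squares), with black bars at the group means and a dotted line at 1 FPKM. Wnt2, Wnt5b, Wnt6 and Wnt7b are lower and Wnt5a higher in all Wnk1d/d libraries, and the other ligands overlap.

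*Wnt6*, a ligand of the canonical branch, had the largest log2 change of the tested ligands. The control libraries, in order of replicate, held 3.80, 6.25, 6.59 and 5.34 FPKM. The *Wnk1d/d* libraries held 0.79, 2.45, 1.04, 1.96 and 1.01 FPKM. The lowest control lay above the highest *Wnk1d/d* library, and replicates 2 and 4 were the upper values within *Wnk1d/d*. The means were 5.50 ± 1.25 FPKM (SD, n = 4) and 1.45 ± 0.717 FPKM (SD, n = 5). The log2 fold change was -1.43 (SE 0.22, 95% interval -1.92 to -0.94, limma adjusted p = 0.0047), and the exact two-sided permutation test gave p = 0.0079, the smallest that 4 against 5 libraries allow. The call was kept in each of the 9 fits without 1 library, with log2 fold changes from -1.57 to -1.33. *Wnt10a*, chosen after its values were seen for its place beside *Wnt6*, was also low, at 0.24, 0.59, 0.49 and 0.25 FPKM in controls and 0.07, 0.07, 0.02, 0.19 and 0.00 FPKM in *Wnk1d/d*. These did not overlap (exact permutation p = 0.0079), but lay below the level for testing.

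*Wnt7b*, a ligand of the luminal epithelium, was the highest of the 9 in controls on average and had the widest spread there. The control libraries held 72.9, 25.7, 20.7 and 37.4 FPKM. The *Wnk1d/d* libraries held 12.0, 15.6, 14.0, 16.7 and 8.42 FPKM. All were below the lowest control, and replicate 1 raised the control mean. The means were 39.2 ± 23.6 FPKM (SD, n = 4) and 13.4 ± 3.28 FPKM (SD, n = 5), with a log2 fold change of -1.35 (SE 0.33, 95% interval -2.10 to -0.61, limma adjusted p = 0.021, exact permutation p = 0.0079). Without *Wnk1f/f* replicate 1 the log2 fold change was -1.01 and the gene was still called. Without *Wnk1f/f* replicate 4, the library with the liver markers, it was -1.32 and the adjusted p from limma was 0.056.

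*Wnt5b*, which acts largely outside the β-catenin branch, fell by less. The control libraries held 3.82, 3.0, 3.04 and 4.91 FPKM and the *Wnk1d/d* libraries 2.17, 2.97, 2.30, 2.38 and 2.35 FPKM. The groups did not overlap, but replicate 2 of either genotype nearly met. The means were 3.69 ± 0.895 FPKM (SD, n = 4) and 2.43 ± 0.310 FPKM (SD, n = 5), with a log2 fold change of -0.44 (SE 0.13, 95% interval -0.73 to -0.15, limma adjusted p = 0.040, exact permutation p = 0.016). The call was lost in 6 of the 9 fits without 1 library, those without *Wnk1f/f* replicates 1 or 4 or *Wnk1d/d* replicates 1, 3, 4 or 5, with limma adjusted p from 0.074 to 0.088 and log2 fold changes from -0.43 to -0.32. *Fbxl14*, which lies within *Wnt5b* on the opposite strand without sharing exon bases, was at 11.7 to 13.4 FPKM in all libraries.

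*Wnt5a*, the stromal ligand best known for signalling through ROR2, was the only ligand that rose by this test. The control libraries held 26.2, 40.1, 38.6 and 29.7 FPKM. The *Wnk1d/d* libraries held 51.0, 42.3, 45.3, 42.3 and 47.5 FPKM. Control replicates 2 and 3 were close below the lowest *Wnk1d/d* library, and replicates 1 and 4 lay further down. The means were 33.6 ± 6.78 FPKM (SD, n = 4) and 45.7 ± 3.69 FPKM (SD, n = 5), with a log2 fold change of 0.45 (SE 0.13, 95% interval 0.16 to 0.73, limma adjusted p = 0.034, exact permutation p = 0.0079). The call was lost in 5 of the 9 fits, those without *Wnk1f/f* replicates 1 or 4 or *Wnk1d/d* replicates 1, 3 or 5, with limma adjusted p from 0.070 to 0.092 and log2 fold changes from 0.34 to 0.45.

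*Wnt2*, a stromal ligand of the canonical branch, was the lowest of the 9. It stood at 0.88, 0.81, 0.67 and 1.09 FPKM in controls and at 0.38, 0.23, 0.31, 0.39 and 0.37 FPKM in *Wnk1d/d* uteri, with no overlap and a ratio of means of 0.390. It did not reach a mean of 1 FPKM in either genotype and was left out of the test across genes. The exact permutation test gave p = 0.0079. In the fit without a filter on low values, over 21949 entries, its log2 fold change was -0.48 (SE 0.07, limma adjusted p = 0.0066).

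*Wnt16*, a stromal ligand, had a lower mean in *Wnk1d/d* uteri that did not pass the test. The controls held 22.2, 16.7, 18.4 and 10.4 FPKM and the *Wnk1d/d* libraries 5.04, 15.8, 5.26, 12.4 and 8.37 FPKM. Replicates 2 and 4 of *Wnk1d/d*, the same libraries that were upper for *Wnt6*, reached into the control range. The log2 fold change was -0.86 (SE 0.33, 95% interval -1.60 to -0.13, limma adjusted p = 0.086, exact permutation p = 0.079). Without *Wnk1d/d* replicate 2 it was -1.07 and passed the test (limma adjusted p = 0.028).

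*Wnt4*, which is needed for Müllerian duct formation and decidualization, was at 2.40, 2.90, 2.57 and 2.42 FPKM in controls and at 3.47, 3.03, 2.98, 2.67 and 2.65 FPKM in *Wnk1d/d* uteri. Only control replicate 2 reached into the *Wnk1d/d* range, and the log2 fold change was 0.15 (SE 0.09, 95% interval -0.05 to 0.35, limma adjusted p = 0.25). *Wnt7a*, which keeps the uterine epithelium and its glands in order, was at 9.81, 20.6, 14.3 and 9.58 FPKM and at 14.9, 12.6, 16.1, 17.5 and 14.8 FPKM, with a log2 fold change of 0.21 (95% interval -0.24 to 0.66, limma adjusted p = 0.47). *Wnt11* was at 15.4, 37.7, 26.7 and 13.5 FPKM and at 34.3, 22.2, 23.3, 27.6 and 30.2 FPKM, with a log2 fold change of 0.33 (95% interval -0.29 to 0.94, limma adjusted p = 0.40). For both epithelial ligands the control mice spanned the whole *Wnk1d/d* range, with replicates 1 and 4 low and replicate 2 high. The intervals include changes of either sign. None of these 3 was called in any fit without 1 library.

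**Figure D2:**
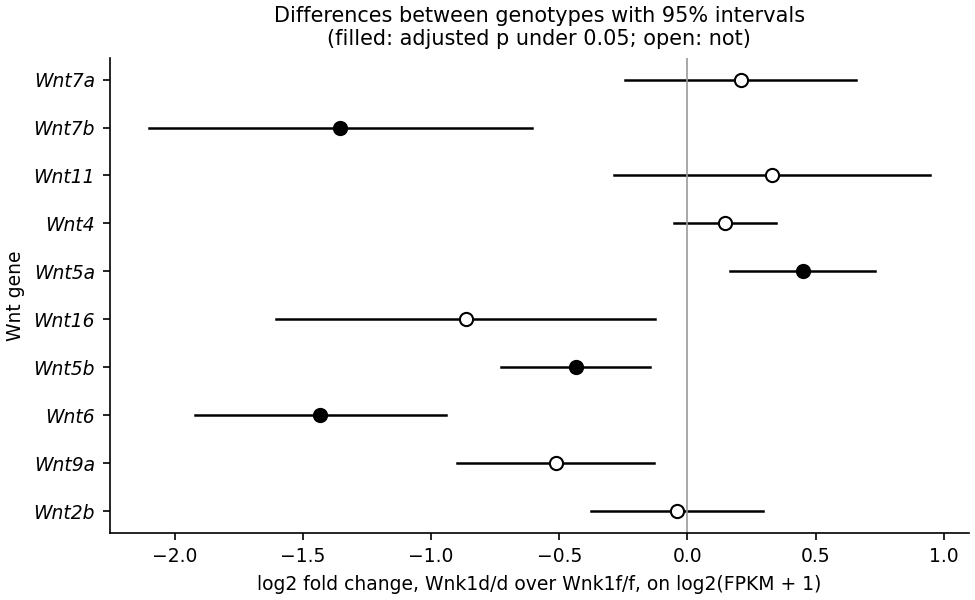
Log2 fold changes on log2(FPKM + 1), Wnk1d/d over Wnk1f/f, with 95% intervals from limma, for the 8 tested ligands and for Wnt9a and Wnt2b; filled points had an adjusted p under 0.05. The intervals of Wnt5b, Wnt6 and Wnt7b lie below 0 and that of Wnt5a above 0, while Wnt16 and Wnt9a, whose intervals also lie below 0, did not pass after adjustment.

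The log2 fold changes of the epithelial ligands had both signs, as did those of the stromal ligands. Among the 3 epithelial ligands 1 fell, and the log2 fold changes were 0.21 for *Wnt7a*, 0.33 for *Wnt11* and -1.35 for *Wnt7b*, with a median of 0.21. Among the 3 tested stromal ligands 1 rose, and the log2 fold changes were 0.15 for *Wnt4*, 0.45 for *Wnt5a* and -0.86 for *Wnt16*, with a median of 0.15. With 3 genes in each class, these medians are the values of *Wnt7a* and *Wnt4* themselves. Their difference was 0.06. Its SD over the *Wnk1d/d* libraries, each set against the control mean, was 0.21. That SD leaves out the spread between control mice. With a filter of 5 FPKM, which *Wnt4* did not pass, the difference was 0.42. With *Wnt2* included in the fit without a filter the stromal median was -0.16 and the difference was 0.37.

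The order of levels within a genotype also differed. In controls *Wnt7b* led with a mean of 39.2 FPKM, followed by *Wnt5a*, *Wnt11*, *Wnt16* and *Wnt7a*, and each of these neighbours overlapped the next. *Wnt6* and *Wnt5b* followed and overlapped each other, and *Wnt4* and *Wnt2* were lowest without overlap with their neighbours. In *Wnk1d/d* uteri *Wnt5a* led with 45.7 FPKM, above *Wnt11* with 27.5 FPKM, and neither overlapped the ligand that followed. *Wnt7a*, *Wnt7b* and *Wnt16* came next and overlapped one another in turn, as did *Wnt4*, *Wnt5b* and *Wnt6* below them.

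The 19 Wnt genes in the table summed to 126 to 166 FPKM in controls and to 116 to 131 FPKM in *Wnk1d/d* uteri, which overlapped. Within that sum *Wnt7b* made up 44.0, 15.7, 14.9 and 29.7% in controls and 9.18, 12.8, 12.1, 12.8 and 6.91% in *Wnk1d/d* libraries. *Wnt5a* made up 15.8, 24.6, 27.8 and 23.5% in controls and 38.9, 34.7, 39.0, 32.4 and 39.0% in *Wnk1d/d* libraries. Neither share overlapped between the genotypes, and the control replicate with the largest *Wnt7b* share had the smallest *Wnt5a* share. *Wnt6* made up 2.29 to 4.75% in controls and 0.603 to 2.01% in *Wnk1d/d*. The ratio of *Wnt7b* to *Wnt7a* FPKM was 7.44, 1.25, 1.45 and 3.91 in controls and 0.805, 1.24, 0.874, 0.952 and 0.570 in *Wnk1d/d*, again with replicate 2 of both genotypes closest. The ratio of *Wnt6* to *Wnt5a* was 0.145 to 0.180 in controls and 0.0155 to 0.0579 in *Wnk1d/d*. The ratio of *Wnt11* to *Wnt7a* overlapped, at 1.41 to 1.87 and 1.45 to 2.30.

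**Figure D3:**
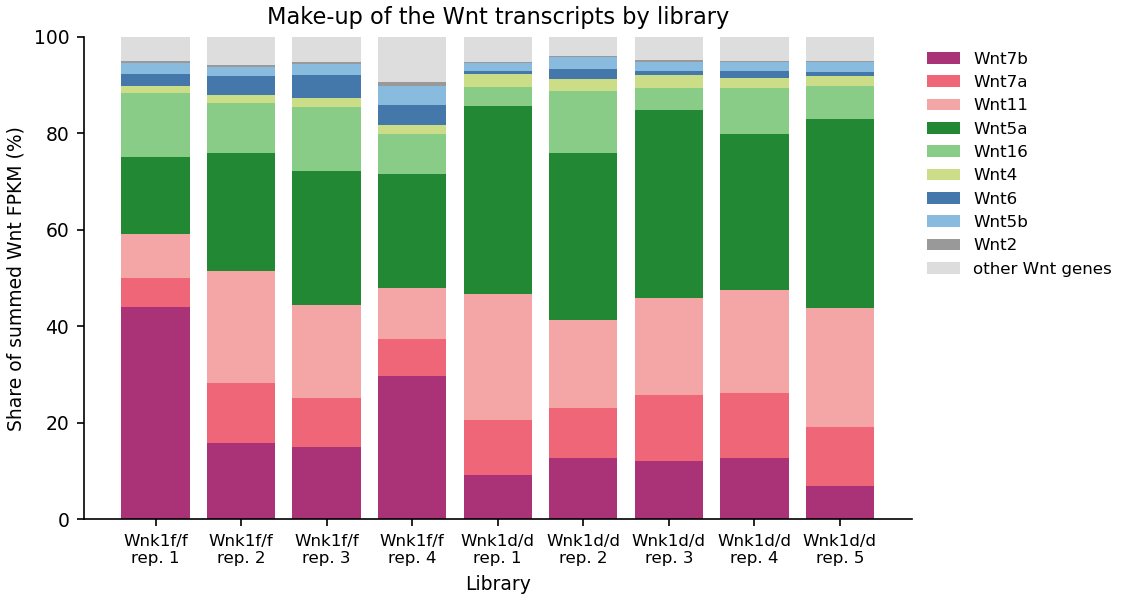
Share of the summed FPKM of all 19 Wnt genes taken by each ligand in each library, in percent, as stacked bars. Wnt7b takes 14.9 to 44.0% in Wnk1f/f and 6.91 to 12.8% in Wnk1d/d libraries, and Wnt5a takes 15.8 to 27.8% and 32.4 to 39.0%.

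Ligands also varied together between mice of the same genotype. With log2(FPKM + 1) centred within genotype, Pearson's r over the 9 libraries was 0.89 for *Wnt11* with *Wnt5a*, 0.88 for *Wnt11* with *Wnt7a* and 0.77 for *Wnt5a* with *Wnt7a*. *Wnt7b* ran against *Wnt5a* (r = -0.89) and *Wnt5b* against *Wnt11* (r = -0.86), out of 28 pairs examined. These points share libraries and their scaling, and the values describe these 9 mice. *Wnt4* followed the summed epithelial markers (r = 0.97), although it was classed as stromal, and *Krt8*, a keratin of simple epithelium, was among the 3 genes most like it (r = 0.97) beside *Cxcl17* and *Krt10* (both r = 0.98). *Wnt6* and *Wnt16* followed the summed endothelial markers (r = 0.77 and r = 0.76). *Wnt4* also ran with the oviduct markers (r = 0.83) and against the gland markers (r = -0.76), and *Wnt7a* against the stromal markers (r = -0.72). The oviduct sum was nearly all *Ovgp1*. *Foxj1*, also in that list, was at 0.10 to 0.17 FPKM in controls and 0.16 to 0.31 FPKM in *Wnk1d/d*. *Wnt5b* ran with the liver markers (r = 0.75), but without *Wnk1f/f* replicate 4, left out after the values were seen, r was 0.14 over 8 libraries. Pairs not named above also changed without that library. With the immune markers r went from 0.41 to 0.78 for *Wnt5a* and from -0.61 to -0.81 for *Wnt7b*. It went from -0.39 to -0.75 for *Wnt4* with smooth muscle markers and from -0.48 to -0.72 for *Wnt16* with oviduct markers. The other ligand and marker pairs named above kept their sign.

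The genes most like the other ligands by the same measure were *Plekhs1*, *Smchd1* and *Fxyd4* for *Wnt5a* (r = 0.996, r = 0.989 and r = 0.988 over 9 libraries). For *Wnt11* they were *Tor1aip2*, *Pafah1b3* and *Arhgap44* (r = 0.98 to r = 0.99), and for *Wnt7a* they were *Lurap1*, *Bad* and *Hmgn2* (r = 0.97 to r = 0.99). For *Wnt7b* they were *A230083G16Rik*, *Klhl2* and *Tmem181c-ps* (r = 0.95 to r = 0.98), and for *Wnt5b* they were *Vpreb3*, *Fam188b* and *Herpud2* (all r = 0.97). For *Wnt6* they were *Frmd8*, *Tusc5* and *Ing3* (r = 0.96 to r = 0.97). For *Wnt16* they were *Zfp169*, *Tcf7l2*, a TCF/LEF factor, and *Rapgef4* (r = 0.94 to r = 0.96). As the highest r among all tested genes over 9 libraries, these values are large by selection.

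Markers of several cell types moved with genotype beside the ligands. The 6 endothelial markers were all lower in *Wnk1d/d*, and their sum was 331 to 367 FPKM in controls and 131 to 266 FPKM in *Wnk1d/d*. The 6 smooth muscle markers were all higher, with sums of 2797 to 6372 FPKM and 7210 to 13655 FPKM. Of the 5 gland markers 3 fell, the abundant secreted products *Spink3*, *Prss28* and *Prss29*, which make up nearly all of the sums of 6587 to 10393 FPKM and 815 to 2716 FPKM. The other 2 were not called and had higher means in *Wnk1d/d*, *Foxa2*, the transcription factor that marks gland cells, by 1.16 times (log2 fold change 0.20, limma adjusted p = 0.36) and *Cxcl15* by 1.81 times (log2 fold change 0.61, limma adjusted p = 0.12). The paper reports more glands per cross section and higher *Foxa2* by quantitative PCR in *Wnk1d/d* uteri, at a stage its caption does not state. Of the 11 stromal markers 7 fell and 3 rose, and their sums overlapped (2866 to 3368 FPKM and 2918 to 3592 FPKM). None of the 9 epithelial markers was called by limma, and their sums overlapped (721 to 1053 FPKM and 712 to 1146 FPKM). Of 4 tested immune markers none was called (sums 52.6 to 110.2 FPKM and 46.3 to 76.7 FPKM). Of 4 mesothelial markers 1 rose and 1 fell (sums 60.5 to 87.4 FPKM and 65.2 to 114.6 FPKM). *Wt1*, which fell, made up much of these sums, with means of 61.7 FPKM in controls and 46.1 FPKM in *Wnk1d/d*. *Lrrn4* rose to 3.09 times the control mean. *Msln* and *Upk3b* were not called and had higher means in *Wnk1d/d*, by 2.70 and 1.96 times. The liver markers were not called, and the 1 tested oviduct marker, *Ovgp1*, rose. The part of these shifts in the changes of *Wnt5a*, *Wnt5b*, *Wnt6* and *Wnt7b* was not tested.

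Among the 10 other Wnt genes, 8 lay below the level for testing, and *Wnt1* was listed at 0 in all libraries. *Wnt9a* (chr11:59306928-59333552, plus strand) was at 5.47, 7.26, 4.49 and 9.17 FPKM in controls and at 4.43, 3.47, 3.80, 4.99 and 4.32 FPKM in *Wnk1d/d*, with a log2 fold change of -0.51 (SE 0.17, limma adjusted p = 0.058). Without *Wnk1f/f* replicate 3 it was -0.66 and passed the test (limma adjusted p = 0.025). *Wnt2b*, at 1.0 to 1.87 FPKM and 1.02 to 2.01 FPKM, gave -0.04 (limma adjusted p = 0.86).

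Genes that release and receive Wnt ligands were followed in lists drawn from general knowledge of the pathway. The lists were chosen with earlier results of these data known, so their shares below are not free of that choice. Over 6 lists, 55 of 64 listed genes were tested and 20 were called, 6 higher and 14 lower, where 22.1% of all tested genes were called, 11.1% higher and 11.0% lower. The median log2 fold change over the lists was -0.12. Neither gene needed to release ligands was called. *Wls*, the carrier that takes Wnt proteins to the cell surface, was at 71.6 to 101.5 FPKM and 75.7 to 96.0 FPKM (log2 fold change -0.01, limma adjusted p = 0.96). *Porcn*, the acyltransferase that adds their lipid, was at 26.0 to 46.7 FPKM and 15.5 to 36.4 FPKM (log2 fold change -0.67, limma adjusted p = 0.10), and passed the test without *Wnk1d/d* replicate 1 (log2 fold change -0.85, limma adjusted p = 0.043). Leaving out 1 library gave 11 to 25 called genes over the lists, with 11 without *Wnk1f/f* replicate 4 and 12 without *Wnk1d/d* replicate 3 or 5.

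Of 15 tested receptors and co-receptors 3 were called, 1 higher and 2 lower, a share near the 22.1% of all tested genes, with a median of -0.12. *Fzd8*, a Frizzled receptor, rose in every *Wnk1d/d* library, from 3.82, 2.99, 2.78 and 3.13 FPKM to 5.46, 4.76, 5.70, 5.27 and 4.53 FPKM (log2 fold change 0.56, SE 0.09, limma adjusted p = 0.0065). *Ptk7*, a polarity co-receptor, fell from 60.5 to 76.5 FPKM in controls to 41.6 to 58.9 FPKM (log2 fold change -0.47, limma adjusted p = 0.019). *Fzd1* was lower, with overlap, at 34.3 to 47.0 FPKM and 24.0 to 35.9 FPKM (log2 fold change -0.46, limma adjusted p = 0.028). *Ryk*, another highly expressed receptor of the list, was at 46.3 to 51.7 FPKM and 44.2 to 52.7 FPKM (log2 fold change -0.02). *Ror2*, named after its values were seen as the receptor of *Wnt5a*, was at 9.02 to 12.4 FPKM and 10.2 to 23.7 FPKM (log2 fold change 0.67, limma adjusted p = 0.054). *Ptk7* lost its call without *Wnk1f/f* replicate 4 (limma adjusted p = 0.053) and *Fzd1* in 6 of 9 fits, without *Wnk1f/f* replicates 1, 2 or 4 or *Wnk1d/d* replicates 3, 4 or 5 (limma adjusted p from 0.054 to 0.077). The list gave 1 call without *Wnk1f/f* replicate 4 and 7 without *Wnk1d/d* replicate 2.

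R-spondins strengthen Wnt signals by way of LGR receptors and the ubiquitin ligases that remove Frizzled proteins. Of 8 tested genes of this group 3 were called, 2 higher and 1 lower, against 22.1% of all tested genes, with a median of 0.02. *Lgr6*, an R-spondin receptor, rose from 2.44, 1.08, 1.29 and 1.01 FPKM to 7.44, 6.51, 12.6, 10.6 and 11.8 FPKM, 6.74 times the control mean (log2 fold change 2.14, SE 0.22, limma adjusted p = 0.0014), the largest change of the 55 genes. *Rspo3* fell, from 28.2 to 41.4 FPKM to 15.8 to 25.9 FPKM (log2 fold change -0.60, limma adjusted p = 0.023). *Rspo1* rose, with overlap, from 14.5 to 21.9 FPKM to 20.5 to 27.5 FPKM (log2 fold change 0.43, limma adjusted p = 0.036). *Rspo3* lost its call without *Wnk1f/f* replicate 4 or *Wnk1d/d* replicate 5 (limma adjusted p from 0.051 to 0.052), each of which left *Lgr6* as the 1 call. *Rspo1* lost its call in 7 of 9 fits, being kept without *Wnk1f/f* replicate 1 or *Wnk1d/d* replicate 2 (limma adjusted p from 0.055 to 0.095 in the others).

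Of 7 tested secreted antagonists 5 were lower and none higher, against 11.0% lower and 11.1% higher among all tested genes, with a median of -0.62. *Dkk2*, which binds the co-receptors LRP5 and LRP6, fell from 6.43, 7.58, 8.68 and 9.91 FPKM to 2.07, 4.54, 2.81, 4.56 and 4.02 FPKM (log2 fold change -1.02, SE 0.19, limma adjusted p = 0.0091). *Sfrp2*, a decoy that binds ligands, fell from 86.1, 95.6, 82.0 and 97.0 FPKM to 44.6, 59.3, 40.3, 65.0 and 53.4 FPKM (log2 fold change -0.79, SE 0.14, limma adjusted p = 0.0067). Neither overlapped between genotypes, and both stayed called in all 9 fits without 1 library. *Notum*, the enzyme that removes the lipid of Wnt proteins, fell from 3.24 to 6.02 FPKM to 1.96 to 2.79 FPKM (log2 fold change -0.71, limma adjusted p = 0.012). *Dkk3* (log2 fold change -0.62, limma adjusted p = 0.028) and *Sfrp1* (log2 fold change -0.40, limma adjusted p = 0.023) were also lower, and *Sfrp4*, at 51.5 to 78.7 FPKM and 33.2 to 64.3 FPKM, was not called (limma adjusted p = 0.24). *Dkk3* lost its call without *Wnk1f/f* replicates 2, 3 or 4 or *Wnk1d/d* replicates 3 or 5 (limma adjusted p from 0.052 to 0.077), and *Sfrp1* without *Wnk1f/f* replicates 3 or 4 or *Wnk1d/d* replicate 3 (limma adjusted p from 0.050 to 0.056), so that 3 antagonists were called without any 1 of the last 3.

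Of 15 intracellular components 2 rose and 2 fell, a share near the 22.1% of all tested genes, with a median of 0.07. *Ctnnb1*, which encodes β-catenin, was at 362 to 373 FPKM in controls and 336 to 385 FPKM in *Wnk1d/d* (log2 fold change -0.03, limma adjusted p = 0.73). *Bcl9*, a β-catenin co-activator, rose from 16.4 to 18.5 FPKM to 19.7 to 34.4 FPKM (log2 fold change 0.59, limma adjusted p = 0.019), and *Tcf7l2* fell from 8.12 to 9.12 FPKM to 5.37 to 7.19 FPKM (log2 fold change -0.41, limma adjusted p = 0.014). *Csnk1a1*, a kinase that marks β-catenin for degradation, was higher (log2 fold change 0.32, limma adjusted p = 0.031), and *Dvl2*, which relays the signal from Frizzled, was lower (log2 fold change -0.25, limma adjusted p = 0.029). *Csnk1a1* lost its call in 7 of 9 fits, being kept without *Wnk1f/f* replicate 3 or *Wnk1d/d* replicate 2 (limma adjusted p from 0.060 to 0.079 in the others), and *Dvl2* without *Wnk1f/f* replicates 1, 2 or 4 or *Wnk1d/d* replicate 5 (limma adjusted p from 0.061 to 0.077), so that 2 of the list were called without any 1 of the last 4.

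Of 12 genes known as β-catenin targets 5 were lower and 1 higher, against 11.0% and 11.1% of all tested genes, with a median of -0.41. *Axin2*, a feedback inhibitor widely read as a reporter of the canonical branch, was at 39.5, 35.9, 27.9 and 41.6 FPKM in controls and at 19.5, 28.4, 19.8, 28.3 and 21.7 FPKM in *Wnk1d/d* (log2 fold change -0.60, SE 0.15, limma adjusted p = 0.023). Only control replicate 3 reached into the *Wnk1d/d* range. *Tcf7*, a TCF/LEF factor, fell from 31.6 to 36.3 FPKM to 17.9 to 27.5 FPKM without overlap (log2 fold change -0.70, limma adjusted p = 0.0055), as did *Myc*, from 89.8 to 114.5 FPKM to 54.4 to 79.6 FPKM (log2 fold change -0.55, limma adjusted p = 0.015). *Lef1* was lower with overlap (log2 fold change -0.73, limma adjusted p = 0.044), and *Notum* stands in both this list and that of the antagonists. *Ccnd1*, the cell cycle gene cyclin D1, rose from 18.5 to 44.3 FPKM to 44.3 to 75.3 FPKM (log2 fold change 1.03, limma adjusted p = 0.020), opposite to the other called targets. *Apcdd1*, the highest of the list, was at 273 to 328 FPKM and 118 to 274 FPKM (log2 fold change -0.68, limma adjusted p = 0.053). *Axin2* lost its call without *Wnk1f/f* replicates 1 or 4 or *Wnk1d/d* replicates 3 or 5 (limma adjusted p from 0.053 to 0.067), *Ccnd1* without *Wnk1d/d* replicate 3 (limma adjusted p = 0.051) and *Lef1* in 7 of 9 fits (limma adjusted p from 0.066 to 0.10), being kept without *Wnk1f/f* replicate 4 or *Wnk1d/d* replicate 4. *Apcdd1* passed the test without *Wnk1d/d* replicate 2 or 4 (limma adjusted p from 0.024 to 0.034), and the list gave 3 calls without *Wnk1d/d* replicate 3.

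**Figure D4:**
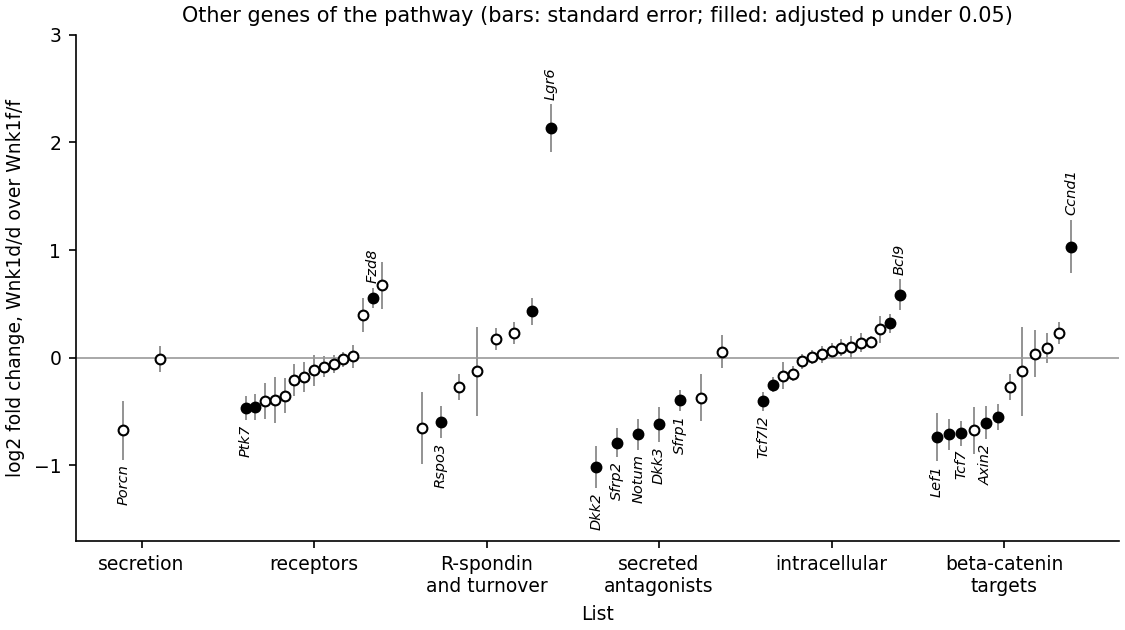
Log2 fold changes on log2(FPKM + 1), Wnk1d/d over Wnk1f/f, of the tested genes in 6 lists of the Wnt pathway, with standard errors; filled points had an adjusted p under 0.05, and genes in 2 lists appear in each. The 5 called antagonists lie below 0, Lgr6 stands highest at 2.14, and Ccnd1 is the only called target above 0.

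Genes that work beside Wnt signals in the receptive uterus were also followed, and 5 of 9 were called, 3 higher and 2 lower, against 22.1% of all tested genes, with a median of 0.24. The list was chosen with earlier results of these data known, so its share is not free of that choice. The paper names *Msx2* among its changed genes, and *Hand2* and *Nr2f2* also stand in the list of stromal markers. *Lif*, the cytokine that the uterus needs for implantation, rose from 1.70, 3.17, 3.38 and 2.45 FPKM to 8.50, 5.60, 7.94, 7.92 and 8.86 FPKM without overlap (log2 fold change 1.27, SE 0.16, limma adjusted p = 0.0027). *Hand2* (log2 fold change -0.58, limma adjusted p = 0.029) and *Nr2f2* (log2 fold change -0.35, limma adjusted p = 0.0066), transcription factors of the stroma, were lower. *Msx2* (log2 fold change 0.50, limma adjusted p = 0.025) and *Foxo1* (log2 fold change 0.24, limma adjusted p = 0.049) were higher. *Msx1*, which acts upstream of *Wnt5a* in the receptive uterus, was at 72.0 to 151.6 FPKM and 111.2 to 146.8 FPKM (log2 fold change 0.33, limma adjusted p = 0.25) and passed the test without *Wnk1f/f* replicate 2 (log2 fold change 0.55, limma adjusted p = 0.039). *Foxo1* lost its call in 7 of 9 fits without 1 library (limma adjusted p from 0.063 to 0.13), being kept without *Wnk1f/f* replicate 1 or *Wnk1d/d* replicate 3. Over all 19 alternative fits it lost the call in 14. These included a pseudocount of 0.1, no filter, median scaling, quantile normalization, no trend, array weights and the replicate block. *Hand2* lost its call without *Wnk1f/f* replicates 1, 2 or 4 or *Wnk1d/d* replicates 3 or 5 (limma adjusted p from 0.057 to 0.070). *Msx2* lost its call without *Wnk1f/f* replicate 1 or *Wnk1d/d* replicates 3 or 4 (limma adjusted p from 0.056 to 0.063).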

How the data were processed

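RNA-Seq of whole uterus gave 1 library for each of 9 mice. Reads were aligned by the authors (TopHat2 2.0.4, mm10) and turned into FPKM with Cufflinks 2.0.2, per the submitters' processing notes, and deposited 1 table of FPKM for all libraries, unpooled. The annotation was not given in the sources used here, and Cuffdiff, which the study used on aligned reads, was not rerun. Columns of other samples numbered 0.

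From the deposited FPKM, log2(FPKM + 1) was compared with limma 3.58.1 under R 4.3.3 (unpaired; eBayes with a trend) for genes with a mean above 1 FPKM in at least 1 genotype, with Benjamini-Hochberg adjustment. The step was tested on simulated data. Single genes were compared by the exact permutation test over all 126 regroupings (Python 3.11.15, NumPy 2.4.6). Alternatives were pseudocounts of 0.1 and 0.01, no filter, quantile normalization and median scaling, a filter of 5 FPKM, limma robust, with array weights or with no trend, a replicate block, other fold criteria and each library left out. In fits without 1 library, adjustment was over the genes that passed the filter in the rest.

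Named were all ligands, other Wnt genes that passed the filter, up to 5 called genes of largest change and the 2 highest of each list, the 3 genes most like each ligand, and *Wnk1*. Members and lists were chosen with earlier results of these data known. Gene bounds came from GENCODE M21 and promoters from RefSeq (GRCm38.p6). Depth is unknown from FPKM. In 14 low entries, the worth of 1 fragment differed by up to 1.26-fold between libraries.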

Additional observations from a re-analysis of the deposited data

Results flagged for a closer look

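Over 68 named genes and both genotypes, 136 groups were examined for a library far from the others of its group by Dixon's 95% criterion, and 8 stood out. Chance marks about 1 in 20 groups. Among the ligands, *Wnk1d/d* replicate 2 held 2.97 FPKM of *Wnt5b*, where the other *Wnk1d/d* libraries had a median of 2.33 FPKM, and it lay nearest to the controls. The same library held 5.60 FPKM of *Lif* (median of the others 8.22 FPKM), 0.75 FPKM of *Vpreb3* and 5.97 FPKM of *Fam188b*, of which the last 2 were picked for likeness to *Wnt5b*. *Wnk1d/d* replicate 1 held 33.7 FPKM of *Krt10*, 346 FPKM of *Fxyd4* (medians of the others 11.4 and 109.2 FPKM) and 11.9 FPKM of *Dvl2* (median of the others 13.8 FPKM). *Wnk1f/f* replicate 3 held 135 FPKM of *Csnk1a1* (median of the others 112 FPKM).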

How the results depend on the processing

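*Wnt6* was called in all 19 alternative fits (adjusted p from 0.0020 to 0.044) and *Wnt7b* in 17, *Wnt5a* in 13 and *Wnt5b* in 10 of 18. Without a filter, *Wnt5b* had an adjusted p of 0.061, and *Wnt16* passed the test with array weights. The count of called ligands, 4, was 2 with a ratio of at least 2, and 1 to 5 with 1 library left out: 2 without *Wnk1f/f* replicate 1 or *Wnk1d/d* replicates 1, 3 or 5, and 1 without *Wnk1f/f* replicate 4. The count over the 6 pathway lists, 20, was 12 at a ratio of at least 1.5, 3 at a ratio of at least 2, and 11 to 25 with 1 library left out. The epithelial minus stromal difference, 0.06, was 0.37 without a filter and 0.42 with a filter of 5 FPKM, as *Wnt2* entered or *Wnt4* left, and -0.05 to 0.23 with 1 library left out.

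With the replicate block, 1 ligand (*Wnt6*) and 3 pathway genes were called, and 220 of all genes against 3249. The numbers belong to different mice, and deviations of same-numbered libraries had r from -0.27 to 0.02. The labels name no batch, so whether same-numbered mice shared 1 is unknown. Over all genes 1739 to 4216 were called with 1 library left out.

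Values near 0 that were not called changed sign in some fits. The log2 fold change of *Wls* was 0.027 under the replicate block and -0.088 to 0.077 with 1 library left out, that of *Ryk* was -0.046 to 0.016 and that of *Wnt2b* -0.13 to 0.042. The cause of the lost calls was not tested. Depth is unknown, so no floor could be set for *Wnt2* or *Wnt10a*.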

Other observations

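Control mice differed among themselves in a set of ligands, which was noticed after the values were seen. *Wnk1f/f* replicates 1 and 4 held the highest *Wnt7b* (72.9 and 37.4 FPKM) and *Wnt5b* (3.82 and 4.91 FPKM) of the controls and the lowest *Wnt5a* (26.2 and 29.7 FPKM), *Wnt7a* (9.81 and 9.58 FPKM) and *Wnt11* (15.4 and 13.5 FPKM). In replicates 2 and 3, *Wnt7a* was 20.6 and 14.3 FPKM and *Wnt11* 37.7 and 26.7 FPKM. The gland markers summed to 10383 and 10393 FPKM in replicates 1 and 4 and to 7661 and 6587 FPKM in replicates 2 and 3, and the epithelial markers to 721 and 758 FPKM and to 1053 and 844 FPKM. The part of these shifts was not tested, and the labels give nothing that separates these mice.

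Below the level for testing, the fit without a filter called *Wnt8b* (0.10 to 0.34 FPKM in controls and 0.03 to 0.14 FPKM in *Wnk1d/d*, limma adjusted p = 0.044) and *Wnt10a* (limma adjusted p = 0.024), both lower, and did not call *Wnt10b* (limma adjusted p = 0.087).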
